A study of Mus musculus with 12 samples.

Results

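The comparison was of mouse lung cells at postnatal day 10 (P10) with the same sorted population at postnatal day 7 (P7), given throughout as P10 minus P7. It used 6 of the 12 libraries of a bulk RNA-seq series that also holds embryonic (E17.5) and postnatal day 3 (P3) cells, and the members were all 3 P10 and all 3 P7 libraries. Every library came from cells of dissociated whole lung that carried both reporters, Acta2-dsRed (Acta2 encodes smooth muscle actin) and Pdgfra-GFP (Pdgfra encodes a platelet-derived growth factor receptor), and that were collected by flow sorting for both colours. No other allele, agent, strain, sex or number of animals per library is named in the labels used here. Cells are therefore those that fluoresced in both channels at each age, and the gate rests on 2 genes whose own levels are among the values below. Because bulk RNA was measured, fewer cells of a type and less RNA per cell cannot be told apart. Whether libraries of one age are separate animals is not given, and p-values then reflect the spread between libraries, which may be technical.

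Double-positive cells of this kind, known as secondary crest myofibroblasts, lay down elastin at the tips of the ridges that divide the newborn airspace into alveoli, and they are a transient population. To divide, a cell first loads the MCM helicase onto its chromosomes, then copies its DNA with polymerases, ligases and a supply of deoxynucleotides, and later separates the copies with mitotic kinases, a spindle and kinetochores. In resting cells the genes for these steps are held off by the DREAM and RB-E2F complexes, which act at promoters through E2F sites and through a short element called CHR (cell cycle genes homology region). The series' title places the study in work on Hippo signalling, in which the YAP and TAZ coactivators (Yap1, Wwtr1) drive growth-related targets.

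All 17 measured secondary crest myofibroblast markers were above 0 in all 6 libraries, but so were all 30 endothelial and all 20 alveolar epithelial markers, so detection alone does not check the labelled identity. The myofibroblast markers' summed level was 5296 ± 373 CPM at P7 and 4758 ± 594 CPM at P10 (SD, n = 3 libraries each), where CPM scales each count to the library's size. Pdgfra stood at 186, 219 and 168 CPM in P7 replicates 1 to 3 and at 178, 249 and 236 CPM in P10 replicates 1 to 3, so the ages overlapped. Total estimated counts per library ran from 13328623 to 18643094, and between 20.0% and 35.1% of them belonged to the 7SL and 7SK non-coding RNAs. Spearman correlations across genes were 0.956 to 0.961 within P7, 0.942 to 0.954 within P10 and 0.924 to 0.946 between the ages. P10 replicate 1 stood apart: on the first principal component, which held 35.1% of the variance, it lay at 4.7, between the P7 libraries (-39.8 to -23.1) and P10 replicates 2 and 3 (37.3 and 44.5), and on the second it lay alone at 50. For some of the genes and lists below, values without it are given too.

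Of 16827 genes tested with edgeR's quasi-likelihood test, 613 passed a Benjamini-Hochberg adjusted p of 0.05. Higher calls at P10 numbered 235, or 1.40% of the genes tested, and lower calls 378, or 2.25%. Both shares are the background for counts of called list members below, unless another fit is named. At least 2-fold differences were found for 91 of the higher and 216 of the lower genes. Cell division genes made up much of the lower group: 120 of the 378 belonged to 6 lists of replication and mitosis genes, and none of the 235 higher genes did. The number of calls depended on which libraries were in the fit. It fell to 55, 41 and 39 without P7 replicate 1, 2 or 3 and to 22 and 25 without P10 replicate 2 or 3, but rose to 790 without P10 replicate 1. None of the 613 genes changed its direction in any of these 6 fits. Among them 16 kept an adjusted p under 0.05 in all 6: the higher genes Mgp, Hr, Cst3, Zbtb20 and RP23-372C7.5, and the lower genes Mybl2, Dscc1, Chaf1b, Mcm6, Fen1, Dnmt1, Mastl, Ncaph, Cenpn, BC023719 and H2-T10. Of the 11 lower ones, 8 were in the replication and mitosis lists. BC023719 and H2-T10 overlap in position on chromosome 17, so they may not be separate signals.

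**Figure D1:**
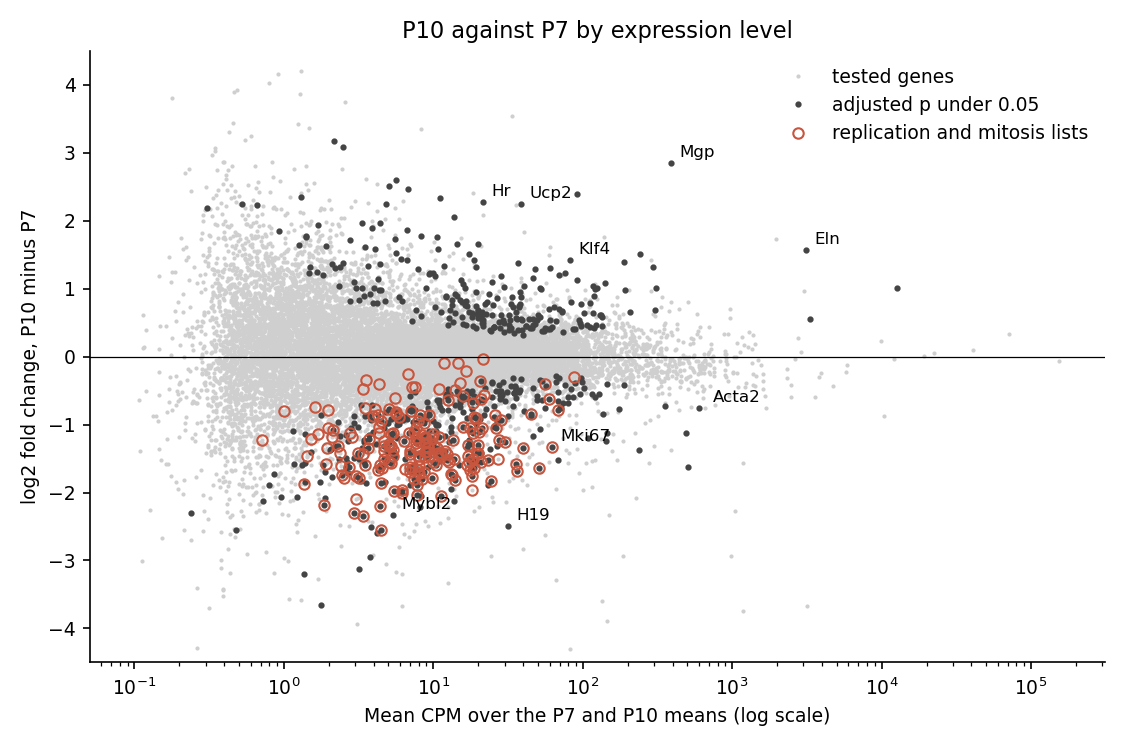
Each point is a tested gene, with its mean CPM over both ages on a log x axis and its log2 fold change, P10 minus P7, on the y axis. Dark points passed an adjusted p of 0.05 and open circles are the replication and mitosis lists, whose estimates all lie below 0. The 268 genes under 0.1 CPM or beyond 4.5 on the y axis are not drawn.

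The promoters of these genes are shown first, since their sequence is independent of the expression values. The stretches below are from RefSeq (GRCm38.p6), 5′ to 3′ on the gene's strand, and end before the transcription start that RefSeq annotates. They were chosen, with the values known, as familiar cell cycle genes whose match lies upstream of the start. In the first pair, from helicase subunits, capitals mark the E2F letters (TTTGGCGC, TTTCCCGC, TTTCGCGC or TTTGCCGC, or their reverse complement). Overlapping matches on both strands run together.
Mcm5, chr8:75109319-75109418, plus strand: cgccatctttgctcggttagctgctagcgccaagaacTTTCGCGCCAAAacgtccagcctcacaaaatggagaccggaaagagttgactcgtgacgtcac
Mcm6, chr1:128359731-128359840, minus strand: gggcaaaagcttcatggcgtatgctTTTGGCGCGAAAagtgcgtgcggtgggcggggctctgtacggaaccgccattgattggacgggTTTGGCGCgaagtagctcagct
In the next 3, from genes that act in G2 and mitosis, capitals mark the CHR letters TTTGAA or their reverse complement TTCAAA.
Mki67, chr7:135716440-135716529, minus strand: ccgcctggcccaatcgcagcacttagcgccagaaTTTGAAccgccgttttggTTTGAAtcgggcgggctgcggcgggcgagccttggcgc
Top2a, chr11:99024190-99024279, minus strand: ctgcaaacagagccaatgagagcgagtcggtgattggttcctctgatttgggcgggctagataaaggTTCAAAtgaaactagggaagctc
Cdc20, chr4:118437344-118437433, minus strand: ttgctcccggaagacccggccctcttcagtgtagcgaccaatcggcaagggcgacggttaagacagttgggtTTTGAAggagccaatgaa

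The share of promoters with each set of letters is given by step as a description. A promoter window of 250 bases before to 50 bases after the start was found by symbol for 10196 of the tested genes, among them 270 of the lower and 160 of the higher genes, and the first window listed was used for each gene. E2F letters on either strand were in 4.07% of all these windows, in 3.12% of those of higher genes and in 14.4% of those of lower genes (95% Wilson interval 10.7% to 19.1%). CHR letters were in 11.7% of all windows, in 7.5% of those of higher genes and in 25.6% of those of lower genes (20.7% to 31.1%). By function, the E2F letters were in 9 of 16 windows of the licensing and helicase list (56.2%) and in 1 of 24 of the mitotic kinase and checkpoint list (4.17%). The CHR letters were in 5 of 16 of the first (31.2%), in 13 of 24 of the second (54.2%) and in 38 of 55 of the kinetochore and spindle list (69.1%). These shares depended on the window: within only the 150 bases before the start, E2F letters were in 31.2% of the licensing list, and CHR letters in 29.2% of the mitotic kinase list and 30.9% of the kinetochore list, beside 2.27% and 5.16% of all windows. In the full window, CCAAT, the core of the NF-Y site, was in 38.5% of all windows and in 19 of 24 of the mitotic kinase list (79.2%). It was also in 68.8% of the licensing list, 60.0% of the DNA synthesis list and 67.3% of the kinetochore list. All 13 mitotic kinase windows with CHR letters also held CCAAT, as did 29 of the 38 kinetochore windows with CHR letters. Among the 174 lower genes outside the 6 lists, E2F letters were in 12.6% and CHR letters in 14.9%. A match is only an occurrence of these letters, and the intervals cover counting error alone.

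**Figure D2:**
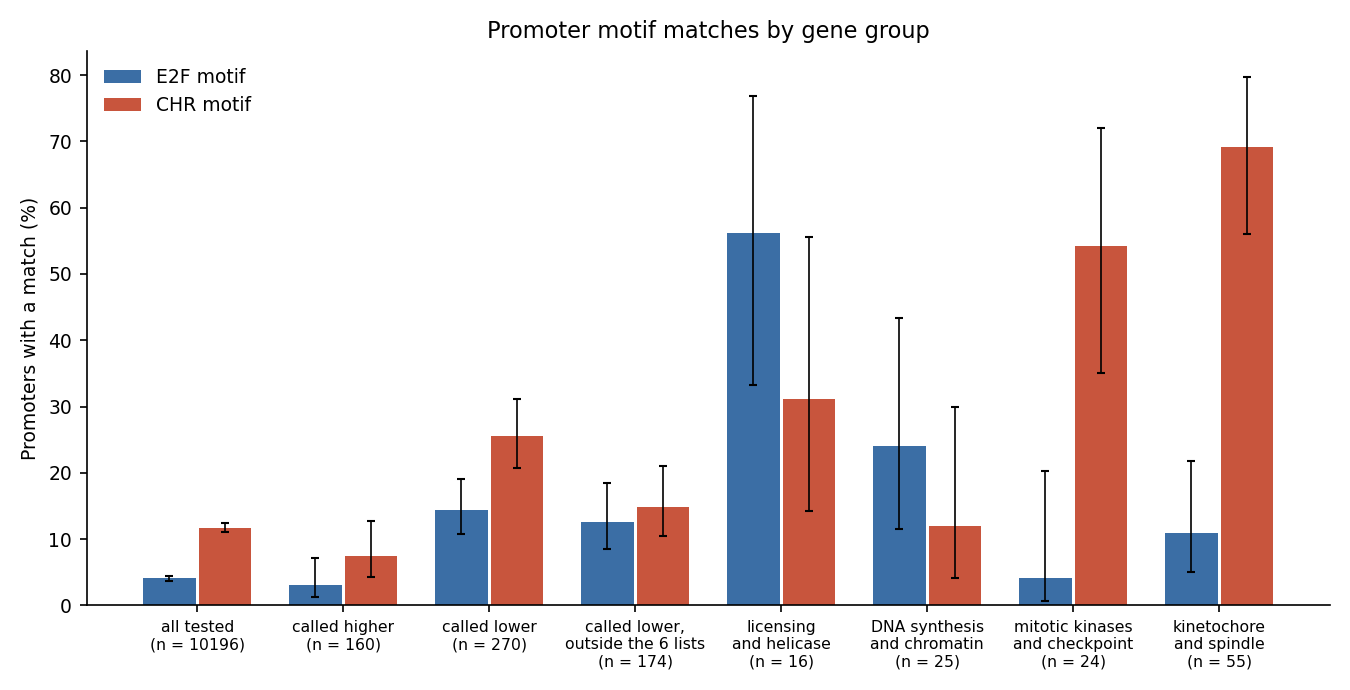
Bars give the percent of promoter windows with E2F or CHR letters in each gene group, with 95% Wilson intervals and the number of windows under each group. The licensing and helicase list has the highest E2F share (56.2%) and the kinetochore and spindle list the highest CHR share (69.1%).

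Genes of every step of chromosome duplication and segregation were lower at P10. The summed level of the 184 genes in the 6 lists was 3051, 2943 and 2963 CPM in P7 replicates 1 to 3 and 1683, 1131 and 1274 CPM in P10 replicates 1 to 3. The 3 P7 libraries were close together and every P10 library was below all of them, with P10 replicate 1 the highest of its age. For context, the same sum was 1245 ± 188 CPM at E17.5 and 3302 ± 136 CPM at P3 (SD, n = 3 libraries each), beside 1363 ± 286 CPM at P10. Of the 183 genes tested, 120 passed as lower and all 183 estimates were below 0. None passed as higher in edgeR, DESeq2 or limma-voom, and 0 had an unadjusted p under 0.05 in that direction. Their median log2 fold change was -1.33, beside 0.01 for all tested genes. In 174 of the 183 tested genes every P10 library was below every P7 library, against 15.0% of all tested genes. Without P10 replicate 1 the median was -1.58 with 133 called. Without any other single library of the 6 it stayed between -1.34 and -1.18, at least 181 of 183 estimates were below 0, and 8 to 18 members passed (18, 16 and 18 without P7 replicate 1, 2 or 3, and 12 and 8 without P10 replicate 2 or 3).

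**Figure D3:**
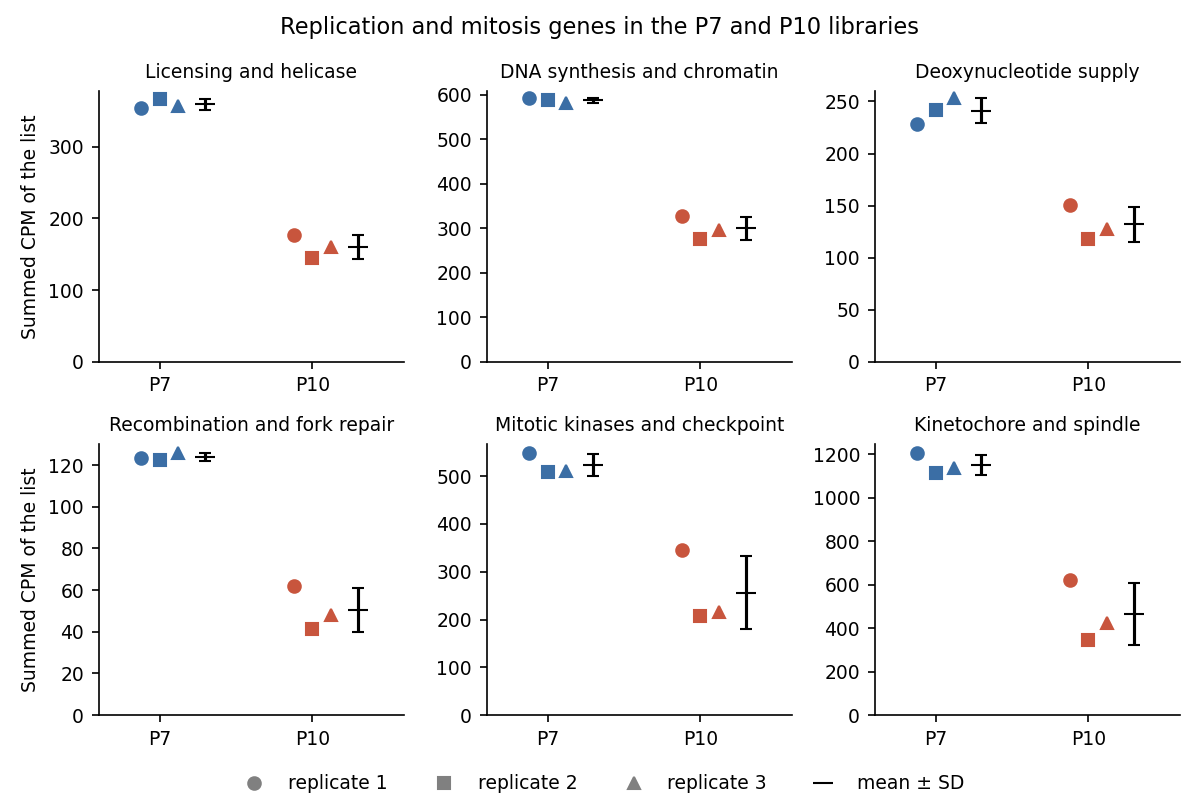
Each panel gives the summed CPM of 1 list in each P7 (blue) and P10 (red) library, with marker shape for the replicate and a bar for mean ± SD (n = 3). In all 6 panels the P10 libraries lie below the P7 libraries, and P10 replicate 1 is the highest of its age.

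Licensing began this series of steps, and 18 of its 22 tested genes fell. Mcm6 (chromosome 1, 128331590 to 128359664), a subunit of the helicase, was at 28.4, 32.5 and 32.3 CPM at P7 and 13.2, 7.96 and 10.7 CPM at P10, with no overlap. Its log2 fold change was -1.55 (SE 0.18, edgeR adjusted p = 0.00513). Mcm5, a second subunit, was at 17.4 to 19.4 CPM at P7 and 5.70, 2.91 and 4.47 CPM at P10, and fell by 2.05 on the log2 scale (SE 0.34, edgeR adjusted p = 0.017). Gmnn encodes geminin, which binds the loading factor Cdt1 after origins have fired. It fell by 2.03 (SE 0.38, edgeR adjusted p = 0.0235), from 12.4 ± 1.0 to 3.02 ± 1.56 CPM (SD, n = 3). Gins2, a part of the active helicase, fell by 2.55, from 7.67 ± 2.74 to 1.30 ± 0.41 CPM, and Mcm10, which starts it, fell by 1.96. The list's summed level was 353 to 367 CPM at P7 and 144 to 177 CPM at P10.

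DNA synthesis and its supply followed, with 21 of 29 tested genes of the synthesis list lower and 8 of 14 of the deoxynucleotide list. Dscc1 encodes a part of the loader that places the sliding clamp. It was at 7.08, 6.03 and 8.63 CPM at P7 and at 1.43, 1.42 and 1.88 CPM at P10, a log2 fold change of -2.19 (SE 0.21, edgeR adjusted p = 0.00382). Chaf1b, which deposits histones behind the fork, was at 9.47, 10.5 and 9.94 CPM at P7 and 2.91, 1.68 and 2.80 CPM at P10, and fell by 2.01 (SE 0.21, edgeR adjusted p = 0.00382). Dnmt1, the methyltransferase that copies DNA methylation to the new strand, had the tightest replicates, at 35.6, 35.0 and 36.1 CPM at P7 and 18.6, 16.1 and 17.0 CPM at P10. These 3 genes had no overlap between the ages, and P10 replicate 1 was not apart for Dscc1. Lig1, the ligase of the lagging strand, fell by 1.68, Prim1, a primase subunit, by 1.72 and Fen1, the flap nuclease, by 1.33. Among nucleotide enzymes, Rrm2, a ribonucleotide reductase subunit, went from 38.1 ± 1.4 to 10.7 ± 5.3 CPM and Tyms, thymidylate synthase, from 21.9 ± 6.5 to 6.18 ± 2.79 CPM (SD, n = 3). In the list of recombination and fork repair, 10 of 22 tested genes fell. Examples were Exo1 (log2 fold change -2.34), a resection nuclease, Rad54b (-1.89), a motor protein of recombination, and Neil3 (-1.69), a glycosylase.

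Mitotic genes fell too. The list of mitotic kinases, cyclins and checkpoint genes had 20 of 30 tested genes lower and a median of -1.44, and that of the kinetochore, spindle, condensin and cytokinesis had 43 of 66 lower and a median of -1.38. Mki67, whose product coats mitotic chromosomes and is a standard mark of cycling cells, was at 90.9, 89.6 and 86.7 CPM at P7 and at 47.4, 27.7 and 31.4 CPM at P10. It fell by 1.33 (SE 0.22, edgeR adjusted p = 0.017), and P10 replicate 1 was between the P7 libraries and the other P10 libraries. Without that library the log2 fold change of Mki67 was -1.62. Top2a, topoisomerase II, showed the same order at 77.0, 77.4 and 78.9 CPM at P7 and 35.4, 16.4 and 23.2 CPM at P10, with a log2 fold change of -1.64, or -2.00 without P10 replicate 1. Aurkb (log2 fold change -1.80) and Cdca8 (-1.76) belong to the chromosomal passenger complex. Bub1 (-1.98) acts in the spindle checkpoint, Ccnb1 (-1.74) is cyclin B1, and Ube2c (-1.53) and Cdc20 (-1.18) drive its destruction. Mastl, the kinase that keeps a phosphatase off in mitosis, was at 4.93, 5.35 and 5.52 CPM at P7 and 1.90, 1.75 and 1.58 CPM at P10. Here P10 replicate 1 did not stand apart, and the log2 fold change was -1.60 (SE 0.18, edgeR adjusted p = 0.00513). The motors and spindle genes Kif18b (-1.86), Kifc1 (-1.79) and Spag5 (-1.69) and the condensin subunit Ncaph (-0.90) also fell.

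Of the 6 lists, the 2 mitotic ones were those in which P10 replicate 1 was furthest from its group. Its summed level was 1.63 times the mean of P10 replicates 2 and 3 for the mitotic kinase list and 1.61 times for the kinetochore list, beside 1.39 times for recombination and fork repair, 1.23 times for deoxynucleotide supply, 1.17 times for licensing and 1.14 times for DNA synthesis. Whether these ratios differ from each other was not tested.

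Regulators of the cycle came next. In the list of G1 cyclins, inhibitors, E2F and DREAM genes, 10 of 40 tested genes fell and the median was -0.20. None rose in edgeR, where 4 had an unadjusted p under 0.05 as higher, while DESeq2 called 3 and limma-voom 2 as higher. Mybl2, which binds the MuvB core and switches on late cell cycle genes, was at 9.77, 9.13 and 8.10 CPM at P7 and 1.66, 1.94 and 1.73 CPM at P10. This was among the largest falls in the lists, -2.34 on the log2 scale (SE 0.24, edgeR adjusted p = 0.00382), and P10 replicate 1 was the lowest of its age. Foxm1, its partner at mitotic promoters, went from 24.1 ± 1.9 to 9.49 ± 3.38 CPM (SD, n = 3). E2f1, an activator, had a log2 fold change of -1.51, and E2f7 (-1.53) and E2f8 (-1.55) encode E2F repressors that are themselves made in S phase. Ccne2 (-1.60), Rbl1 (-1.17), Cdk4 (-0.75) and Tfdp1 (-0.49), an E2F partner, complete those that act in the G1 to S step. The remaining lower gene was Cdkn1c, which encodes the inhibitor p57. It went from 41.8 ± 3.2 to 30.2 ± 1.2 CPM, a log2 fold change of -0.47.

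Replication-dependent histone genes, whose messages carry a stem-loop in place of a poly(A) tail, were lower in estimate, and how many passed depended on P10 replicate 1. With all libraries 2 of 64 tested genes did, Hist1h2al (log2 fold change -1.62) and Hist1h1e (-1.37), although 61 estimates were below 0 and the median was -1.34. The summed level was 10830, 4388 and 5810 CPM in P7 replicates 1 to 3 and 4943, 1951 and 1813 CPM in P10 replicates 1 to 3. Replicate 1 was the highest library at each age, at P10 by 2.63 times the mean of the other 2, and P10 replicate 1 exceeded P7 replicate 2. Without P10 replicate 1 the median was -2.14 and 27 of the 64 passed as lower, in a fit that called 531 of 17719 genes, 3.0%, lower and 1.46% higher. Histone genes share near-identical coding sequences, so their separate counts are uncertain.

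Some imprinted and oncofetal genes were lower as well. Of 26 tested imprinted genes 5 fell and 1 rose. H19, a non-coding RNA of the Igf2 locus on chromosome 7 (142575529 to 142578143), was at 75.4, 45.0 and 39.8 CPM at P7 and 13.9, 8.41 and 6.15 CPM at P10, with no overlap and a log2 fold change of -2.49 (SE 0.34, edgeR adjusted p = 0.0116). Igf2, the fetal insulin-like growth factor of that locus, was low at both ages, at 5.84 ± 0.78 and 2.39 ± 1.003 CPM (SD, n = 3), a log2 fold change of -1.28. Dlk1, a Notch-like membrane protein, went from 6.64 ± 3.83 to 0.862 ± 0.233 CPM, and Meg3, the non-coding RNA of the same domain, from 58.2 ± 8.8 to 31.9 ± 3.1 CPM. Cdkn1c was the fifth, and the sixth, Kcnq1ot1, a long antisense RNA, rose by 0.78. Of 19 tested oncofetal RNA-binding and chromatin genes 4 fell. They were Hmgb2 (-1.53) and Hmgb3 (-1.06), chromatin proteins of dividing cells, Igf2bp3 (-1.59), which binds Igf2 mRNA, and Suv39h1 (-0.79), a histone methyltransferase. Igf2bp3 had a higher mean at E17.5 than at P7 (16.2 and 1.98 CPM). The others had lower means at E17.5 than at P7: Hmgb2 (55.9 and 101.6 CPM), Hmgb3 (26.3 and 70.1 CPM) and Suv39h1 (6.70 and 9.35 CPM).

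Among called genes at 10 CPM or more whose ages did not overlap, predicted models aside, the largest rise was that of a matrix gene. Mgp (chromosome 6, 136872435 to 136875823) encodes matrix Gla protein, an inhibitor of calcification of elastic tissue. It was at 49.7, 125 and 111 CPM at P7 and at 761, 686 and 604 CPM at P10, so the lowest P10 library was several-fold above the highest at P7. The log2 fold change was 2.84 (SE 0.33, edgeR adjusted p = 0.00513), and it ran from 2.55 to 3.10 when each library was left out. Eln (chromosome 5, 134702593 to 134747323), which encodes tropoelastin, was at 1189, 1857 and 1661 CPM at P7 and 4236, 5016 and 4648 CPM at P10. It rose by 1.56 (SE 0.24, edgeR adjusted p = 0.0132). P10 replicate 1 was the highest of its age for Mgp and the lowest for Eln.

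Most other elastic fibre genes were not called. In the list of the elastic fibre scaffold and crosslinking enzymes Eln was the only one of 21 tested genes to pass, and the median was 0.04. The list's summed level, 3919 to 4844 CPM at P7 and 7382 to 7855 CPM at P10, includes Eln itself at means of 1569 and 4633 CPM. The sum had been 7892 ± 1082 CPM at E17.5 and 3282 ± 300 CPM at P3 (SD, n = 3). Of 27 tested collagens, Col3a1, a fibrillar chain, rose, at 2499, 2833 and 2715 CPM at P7 and 3692, 4114 and 3983 CPM at P10 (log2 fold change 0.55, SE 0.13, edgeR adjusted p = 0.0428). Col25a1, a transmembrane collagen, fell from 5.71 ± 0.93 to 0.654 ± 0.578 CPM. Of 22 tested basement membrane genes the laminin chains Lama2 (0.77) and Lama4 (0.58) rose. Over all tested genes 1.40% were called higher and 2.25% lower. Lama2 was at 64.4, 83.3 and 69.7 CPM at P7 and 119.9, 128 and 123 CPM at P10, with no overlap.

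Matrix turnover and processing genes were among the higher calls, which took in 1.40% of all tested genes. Of 27 tested proteases and inhibitors, Adamts1 (log2 fold change 1.32), which cleaves proteoglycans, and Adamts10 (0.65) rose. In collagen processing, Adamts2 (0.64), which removes the procollagen N-propeptide, and P4ha1 (0.54), a prolyl hydroxylase subunit, were the 2 of 19 that passed. Vcan, encoding versican, a proteoglycan that Adamts1 can cleave, fell by 0.69, and Has1, a hyaluronan synthase, rose by 1.06. Cst3 encodes cystatin C, an inhibitor of cysteine proteases. It was at 196, 209 and 217 CPM at P7 and 381, 424 and 442 CPM at P10, with a log2 fold change of 1.003 (SE 0.11, edgeR adjusted p = 0.00382). Adamtsl2 (1.66), a secreted protein that binds fibrillin, was at 5.58 to 8.96 CPM at P7 and at 10.8, 27.1 and 27.8 CPM at P10, where replicate 1 was nearer to P7 than to its own group. Without that library the log2 fold change of Adamtsl2 was 1.96.

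**Figure D4:**
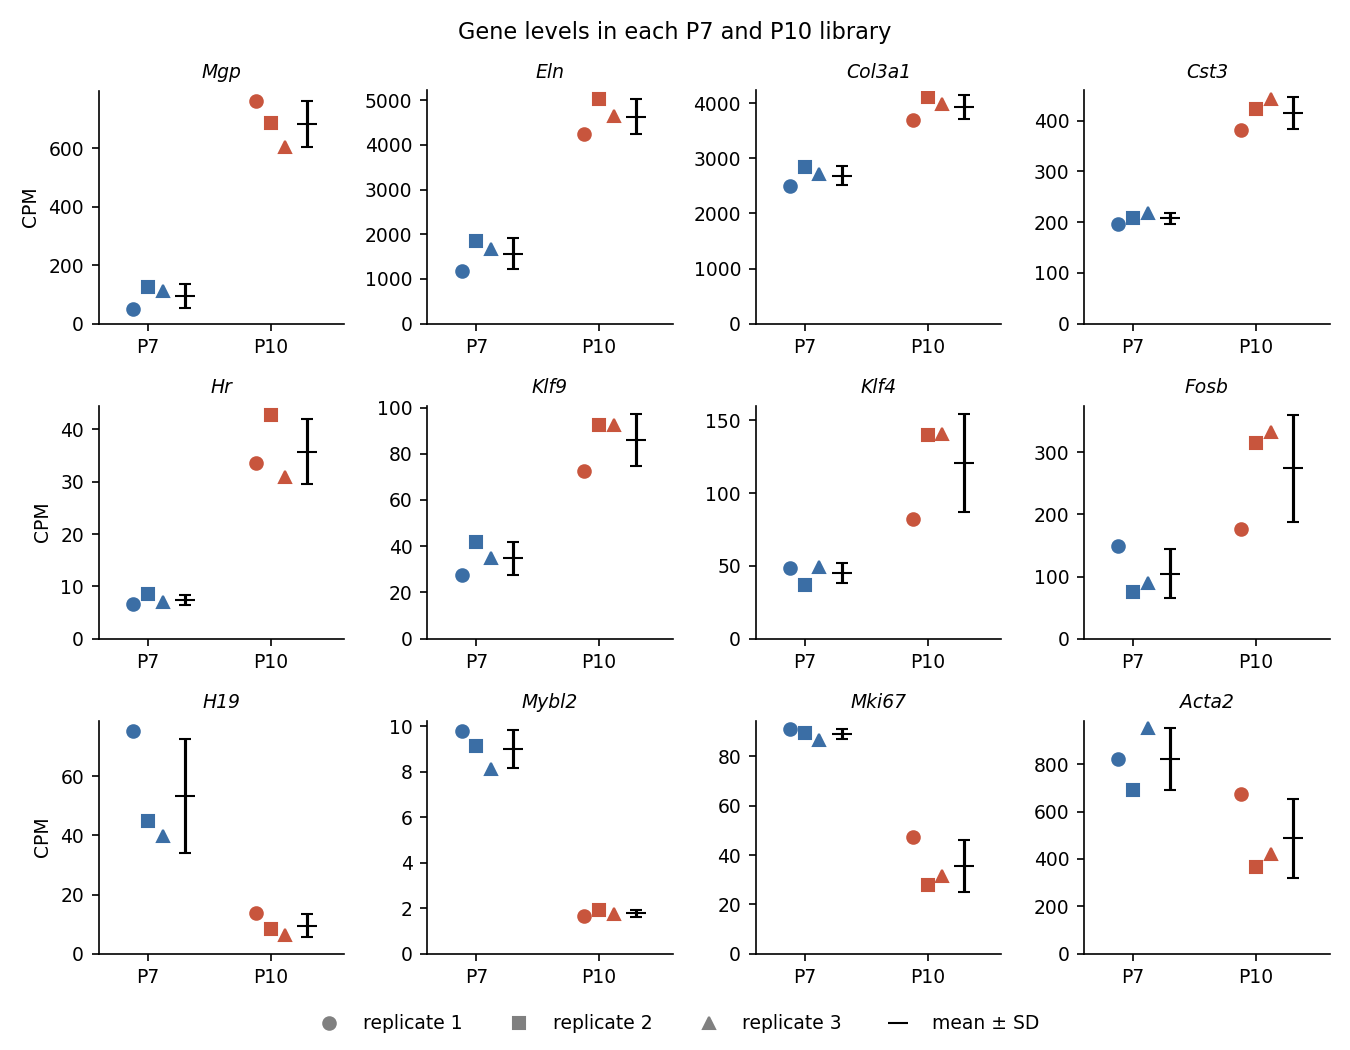
CPM of 12 genes in each P7 (blue) and P10 (red) library, with marker shape for the replicate and a bar for mean ± SD (n = 3). Mgp, Eln, Cst3 and Hr show P10 libraries well above P7, while Mybl2 and Mki67 lie below, and Acta2 in P10 replicate 1 (676 CPM) is near P7 replicate 2 (691 CPM).

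Several transcription factors that respond to signals or hormones were higher at P10. Of 26 tested immediate early genes 5 rose and 25 estimates were above 0 with a median of 0.68. Klf4, a Krüppel-like factor linked to withdrawal from the cycle, was at 48.8, 37.0 and 49.1 CPM at P7 and 81.9, 140 and 140.2 CPM at P10, and rose by 1.42 (SE 0.22, edgeR adjusted p = 0.0132). Fosb (1.39) and Fosl2 (1.01) encode AP-1 subunits, and Nr4a2 (0.99) and Nr4a3 (0.98) encode orphan nuclear receptors. Fos itself did not pass, at 1538, 842 and 1027 CPM at P7 and 763, 1721 and 1898 CPM at P10 (log2 fold change 0.36, edgeR adjusted p = 0.643). P10 replicate 1 was the lowest of all 6 libraries for Fos, and for Fosb (149, 74.6 and 89.7 CPM at P7, and 176, 314 and 333 CPM at P10) it was nearer to P7 replicate 1 than to its own group. Without it the log2 fold changes were 1.6 for Fosb, 1.61 for Klf4 and 0.64 for Fos (edgeR adjusted p = 0.329), and again 5 members of the list passed.

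Hr, the gene hairless, a nuclear receptor corepressor, was at 6.58, 8.45 and 7.10 CPM at P7 and 33.6, 42.8 and 30.9 CPM at P10. It is on chromosome 14 (70552212 to 70573548), the groups were far apart, and the log2 fold change was 2.28 (SE 0.26, edgeR adjusted p = 0.00513). Klf9, a Krüppel-like factor induced by glucocorticoid and thyroid hormone, went from 34.8 ± 7.1 to 86.0 ± 11.5 CPM (SD, n = 3) and rose by 1.30. Of 20 tested glucocorticoid-responsive genes 2 rose, Klf9 and the metallothionein gene Mt1 (2.33), and 3 fell. The 3 were Fkbp5 (-1.20), a chaperone partner of the receptor that the hormone induces, Hif3a (-2.55), at under 1.2 CPM in each library, and Cdkn1c. The list had 17 of 20 estimates above 0 and a median of 0.48, yet its members passed in both directions. Of 18 tested circadian clock genes, Clock (0.61), the activator, and Bhlhe40 (1.04), a repressor, rose and the median was 0.56. Of all tested genes 1.40% were called higher. Zbtb20, a zinc finger repressor, went from 41.7 ± 5.4 to 96.1 ± 17.1 CPM and Cebpd, a stress- and hormone-responsive factor, from 126 ± 60 to 360.2 ± 20.7 CPM.

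Nuclear and mitochondrial genes of the respiratory chain differed by small amounts in opposite directions. Of 48 tested nuclear genes 2 fell in edgeR, the complex I subunits Ndufb7 (-0.52) and Ndufb9 (-0.38), where 21 had an unadjusted p under 0.05, while DESeq2 called 12 and limma-voom 4. The list's median was -0.23, 45 of its estimates were below 0, and 25 genes had every P10 library below every P7 library, as had 15.0% of all tested genes. Its summed level was 3875 to 4409 CPM at P7 and 3304 to 3714 CPM at P10, with P10 replicate 1 the highest of its age, and 8 genes passed as lower without that library. The messenger RNAs of the mitochondrial genome summed to 8639 to 10020 CPM at P7 and 10870 to 11620 CPM at P10. None of these 13 passed in edgeR, where 2 had an unadjusted p under 0.05, and DESeq2 called 1 and limma-voom 0. Larger rises were those of 2 carrier genes. Ucp2, a carrier of the inner membrane, was at 13.5, 12.5 and 14.6 CPM at P7 and 55.2, 74.8 and 62.2 CPM at P10 (log2 fold change 2.24, SE 0.40, edgeR adjusted p = 0.0225). Slc25a33, a pyrimidine nucleotide carrier of the same membrane, rose by 2.06.

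Growth factor and pathway genes were mostly not called. In the Hippo list none of 34 tested genes passed in edgeR, where 8 had an unadjusted p under 0.05, while DESeq2 called 3 and limma-voom 0. Yap1 was at 48.2, 46.0 and 50.4 CPM at P7 and 65.8, 54.0 and 54.3 CPM at P10 (edgeR adjusted p = 0.183). Wwtr1, which encodes TAZ, was at 47.1, 46.2 and 49.1 CPM at P7 and 80.2, 52.3 and 52.4 CPM at P10 (edgeR adjusted p = 0.323). For both, all P10 libraries were above all P7 libraries, as they were for 15.1% of all tested genes, and P10 replicate 1 was the highest. The log2 fold changes were 0.27 for Yap1 and 0.38 for Wwtr1, and 0.14 and 0.11 without that library. Among 29 tested targets of YAP and TAZ, 1 passed in each direction, beside 1.40% of all tested genes called higher and 2.25% called lower. F3, tissue factor, rose by 1.29, and Birc5, survivin, which is also a mitotic gene, fell by 1.67. The targets Cyr61 (also called Ccn1) and Ctgf (also called Ccn2) overlapped between the ages. Cyr61 was at 964, 323 and 371 CPM at P7 and 546, 545 and 599 CPM at P10, so P7 replicate 1 was the highest of the 6. Ctgf was at 184 ± 99 CPM at P7 and 249 ± 88 CPM at P10.

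None of 17 tested Hedgehog genes passed in edgeR, where 6 had an unadjusted p under 0.05, all as lower, while DESeq2 called 3 and limma-voom 1. None of 29 TGF-beta genes passed in edgeR, where 8 had an unadjusted p under 0.05, while DESeq2 called 5 and limma-voom 0. The Hedgehog receptor and target Ptch1 came closest, at 148, 125 and 143 CPM at P7 and 93.6, 87.7 and 95.3 CPM at P10 (log2 fold change -0.59, edgeR adjusted p = 0.0512). Among receptor tyrosine kinase ligands Hgf (1.18) and Fgf7 (0.62), which act on epithelium, rose and Pdgfc (-1.09) fell. Pdgfc was low at both ages, with means of 1.58 CPM at P7 and 0.734 CPM at P10. Of 18 tested IGF genes, Igfbp7, a secreted binding protein, rose by 1.23 and Igf2, given above, fell. Of 28 tested BMP genes Bmp5 rose by 0.69, and of 40 Wnt genes the antagonist Sfrp2 (-1.70) and the nuclear factor Tcf7 (-0.65) fell. Sfrp2 was low too, with means of 2.90 CPM at P7 and 0.888 CPM at P10. Over all tested genes 1.40% were called higher and 2.25% lower.

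The result for contractile genes depended on P10 replicate 1. With all libraries 1 of 39 tested contractile and SRF genes passed, Dmpk (0.78), a kinase, as higher, and the median was -0.24. Acta2, the reporter gene, was at 823, 691 and 952 CPM at P7 and at 676, 364 and 420 CPM at P10, with a log2 fold change of -0.76 (SE 0.28, edgeR adjusted p = 0.157). The P10 libraries were all below P7, but P10 replicate 1 by only a little. The list's summed level was 11540, 9906 and 12000 CPM at P7 and 10830, 7805 and 8194 CPM at P10, so P10 replicate 1 was inside the P7 range and 1.35 times the mean of the other 2. That library had been singled out beforehand for its contractile and endothelial genes, so fits without it describe that difference and are no separate evidence. Without that library 8 of the 39 passed as lower, with 2 P10 libraries left, in the fit that called 3.0% of all genes lower. They were Acta2 (-1.10, edgeR adjusted p = 0.0493), Actg2 (-1.58), Cnn1 (-2.46), Cnn2 (-0.59), Myh11 (-1.05), Myl9 (-0.90), Tpm1 (-1.05) and Tpm4 (-0.58), which encode smooth muscle actins, calponins, a myosin heavy and light chain and tropomyosins. None of these 8 passed when any other single library was left out. Cnn1 shows the gap: it was at 19.7, 12.5 and 25.2 CPM at P7 and 17.6, 2.59 and 4.42 CPM at P10.

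Endothelial markers went the other way in P10 replicate 1. None of 30 tested markers passed in edgeR with all libraries, where 6 had an unadjusted p under 0.05, while DESeq2 called 3 and limma-voom 0. All 30 estimates were above 0 with a median of 0.85, and 27 to 30 were above 0 when each library was left out. Their summed level was 207, 309 and 271 CPM at P7 and 266, 442 and 410 CPM at P10, so P10 replicate 1 was inside the P7 range and at 0.62 times the mean of the other 2. Much of this sum was Eng, at 111, 163 and 154 CPM at P7 and 176, 205 and 191 CPM at P10. For Eng, P10 replicate 1 was above every P7 library, so the place of the sum depends on that gene. All 30 markers were above 0 in all 6 libraries. Cdh5, the endothelial cadherin, was at 4.09, 8.90 and 6.21 CPM at P7 and 2.91, 17.4 and 15.5 CPM at P10, and Egfl7, a secreted endothelial factor, at 2.97, 17.0 and 19.6 CPM at P10. P10 replicate 1 had the lowest Cdh5 of all 6 libraries. That library had been singled out partly by endothelial genes, so the count without it is a description and no separate evidence. Without it 6 of the 30 markers passed as higher, in the fit that called 1.46% of all genes higher. They were Calcrl (1.54), Egfl7 (1.55), Emcn (1.84), Pecam1 (1.47), Ptprb (1.79) and Sox7 (2.07). None of these 6 passed when any other single library was left out.

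Other marker lists moved with that library too. Its summed level was 0.30 times the mean of P10 replicates 2 and 3 for airway epithelial markers, 0.37 times for alveolar epithelial markers, 0.61 times for immediate early genes and 0.77 times for alveolar fibroblast and lipofibroblast markers. It was 1.5 times that mean for matricellular, fibronectin and hyaluronan genes and 1.23 times for secondary crest myofibroblast markers. Immune markers were low in every library, at 21.9 to 39.7 CPM summed. Of 6960 genes at 10 CPM or more at P10, replicate 1 was at least 2-fold above both others for 107 and below both for 73. The same counts were 36 and 25 for replicate 2 and 6 and 123 for replicate 3. At P7, over 7111 genes, they were 92 and 19, 20 and 27, and 10 and 63 for replicates 1 to 3. The part of these markers in the differences between the ages was not tested.

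Other large changes were in genes outside these groups. Slfn9 (log2 fold change -2.21), of the Schlafen family, was at 12.2, 14.4 and 13.8 CPM at P7 and 3.38, 2.27 and 3.05 CPM at P10. Thsd4 (-2.12), a secreted protein that binds fibrillin, went from 22.3 ± 3.3 to 5.13 ± 1.75 CPM, and Fam64a (-2.05), a mitotic gene outside the lists, from 13.34 ± 2.84 to 3.20 ± 0.81 CPM (SD, n = 3). Among the higher genes Kctd16 (1.76), which encodes a subunit of the GABA-B receptor, and Atp8b1 (1.59), a phospholipid flippase, did not overlap between the ages.

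In the lists of other cell types few genes passed between the ages. Fmo2, a monooxygenase in the alveolar fibroblast list, rose by 2.39 and was at 19.2, 36.2 and 32.7 CPM at P7 and 54.4, 210 and 199 CPM at P10, where replicate 1 was again between the groups. Without it Fmo2 rose by 2.77. Rgs5, a pericyte marker and G protein regulator, rose by 1.29, at 27.8, 21.4 and 34.3 CPM at P7 and 47.4, 72.6 and 84.4 CPM at P10. The pericyte and vascular smooth muscle list as a whole was at 463 ± 36 and 494 ± 49 CPM (SD, n = 3). Col2a1, a cartilage collagen, fell by 1.83 from 12.01 ± 5.14 to 3.40 ± 1.84 CPM. Tgfbi, a myofibroblast marker, was not called at 1941, 1740 and 1937 CPM at P7 and 1774, 1257 and 999 CPM at P10.

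**Figure D5:**
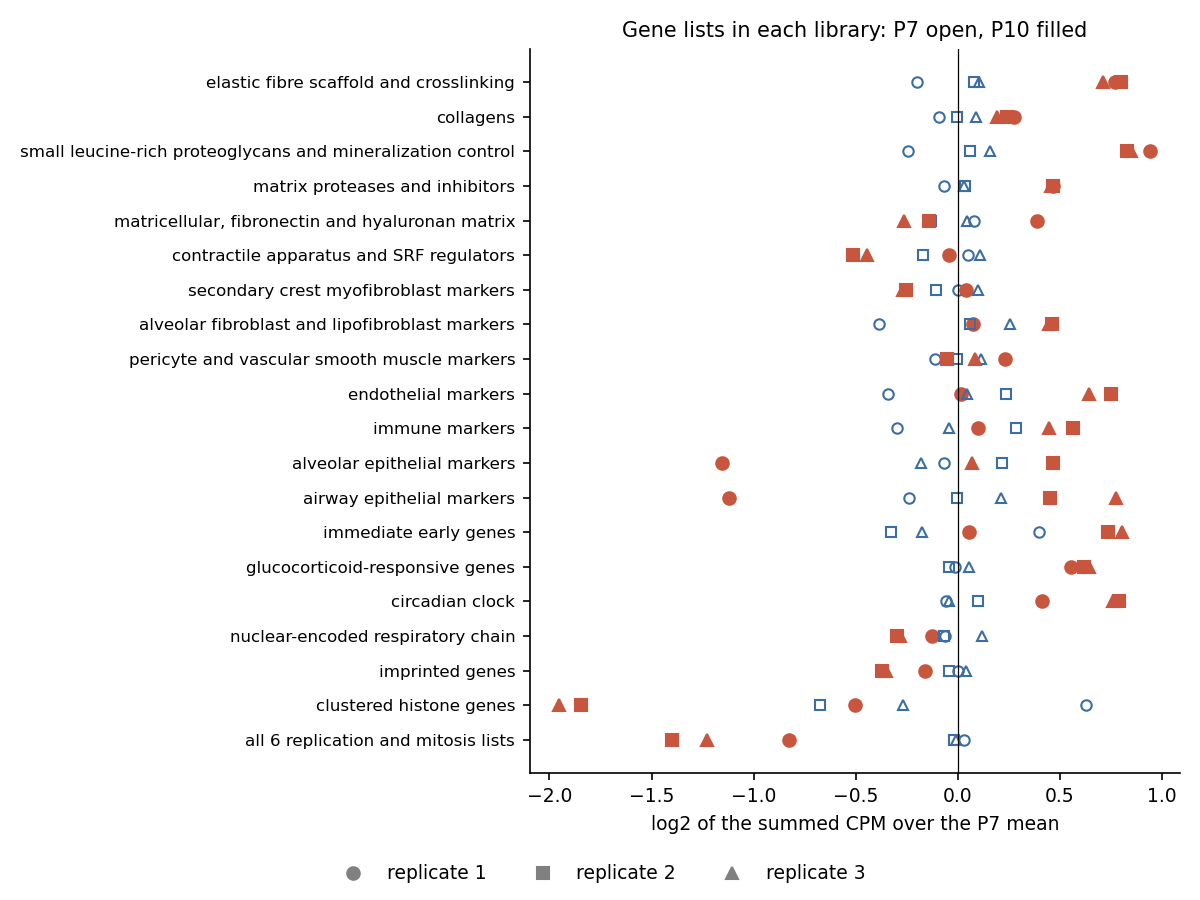
For each gene list the summed CPM of every library is shown as its log2 ratio to the P7 mean, with P7 libraries open, P10 libraries filled and marker shape for the replicate. P10 replicate 1 (filled circle) lies inside or near the P7 libraries for contractile genes and endothelial markers, far below them for epithelial markers, and below them for replication and mitosis genes.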

How the data were processed

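RNA from sorted cells was made into stranded libraries with an ultra-low-input total RNA kit, per the labels' protocols, although the labels name polyA RNA. The deposited table holds estimated counts for 28004 genes in 12 libraries, scaled by the authors and rounded to whole numbers. The build was GRCm38 per the submitters' processing notes. For aligner, quantifier and annotation: not given in the sources used here. Low values of short genes come in steps above 1, so depth per gene is not exactly known.

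Groups came from the sample titles. edgeR 4.0.16 (R 4.3.3, limma 3.58.1) fitted all 12 libraries by stage with filterByExpr, TMM scaling and a robust quasi-likelihood test, and p-values were adjusted over 16827 genes at a threshold of 0.05. CPM used TMM library sizes. SEs were taken from the test statistic. The fit was tested on simulated counts. The 52 gene lists, the comparison and its members were chosen with earlier results of these data known. Lists are described by counts and medians, with no list test. Named genes were the 12 largest changes in each direction at 10 CPM or more without overlap, up to 4 called and 2 uncalled genes per list at 5 CPM or more, genes of P10 replicate 1, and Acta2, Pdgfra, Yap1, Wwtr1, Ccn1 and Ccn2. Further genes were named after their values were seen: those in the promoter display, those called in all leave-one-out fits, and the remaining members that small counts refer to. Gene positions are from GENCODE vM21. Alternatives were RLE and upper quartile scaling in edgeR, no filter, DESeq2 1.42.0 and limma-voom. Others were the 6 libraries alone, a replicate block, a minimum fold of 1.5 and leaving out each library.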

Additional observations from a re-analysis of the deposited data

How the results depend on the processing

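Under RLE scaling 580 genes were called and under upper quartile scaling 636. Without a filter on low counts 307 were (94 higher, 213 lower), with more genes adjusted for. DESeq2 called 1839 (848 higher, 991 lower), limma-voom 863 (361 higher, 502 lower), the 6 libraries alone 617, and a minimum fold of 1.5 left 10 (3 higher, 7 lower), of which 4 were replication and mitosis genes, against 88 to 160 in the other 7 fits of all libraries or of the 6 alone. Leaving out 1 library gave 22 to 790 calls (6 to 259 higher, 16 to 531 lower), 8 to 133 of them replication and mitosis genes. The sample titles give both ages replicate numbers 1 to 3, but the deposited column names number the P7 libraries differently. Deviations of libraries with the same title number correlated at 0.14, 0.054 and 0.119, and those of differently numbered ones at -0.188 to 0.086. P7 replicate 2 correlated best with P10 replicate 3. By column name, P7 replicates 1 and 2 share their numbers with P10 replicates 2 and 3, at correlations of 0.033 and 0.086. Whether libraries were paired is not in the labels, and so few values cannot decide it. The replicate block followed the title numbers. With it 310 genes were called (95 higher, 215 lower), 292 of them among the 613, and 91 replication and mitosis genes. Of 139 genes examined singly, 81 kept the same call in the 7 alternatives with all P7 and P10 libraries and no minimum fold. Of the 139, Cyr61 alone changed direction in any alternative. It was at -0.239, -0.19 and -0.009 without P7 replicate 2, P7 replicate 3 or P10 replicate 3. Its range was -0.239 to 0.719 over the 6 libraries left out in turn, against 0.03 in the main fit. For the ratios of P10 replicate 1 to its group, RLE scaling moved none beyond the gap between replicates 2 and 3. With only the 150 bases before the start, shares among lower genes were 7.78% for E2F letters (2.27% of all), 13.0% for CHR letters (5.16%) and 44.1% for CCAAT (28.2%). Precision is limited by 3 libraries per age.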

Other observations

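A few genes were near absent at one age, and these were picked after their values were seen. Trim12a, a TRIM family gene, was at 1.74, 2.20 and 2.37 CPM in P7 replicates 1 to 3, listed at 0 in all 3 P10 libraries and in 5 of the 6 earlier ones. The related gene Trim12c was at 2.39, 1.97 and 1.05 CPM at P7 and 7.24, 4.53 and 9.41 CPM at P10, and counts of such closely related genes are uncertain. BC023719 was at 2.84 to 4.90 CPM at P7 and at 0 or 0.129 CPM at P10, and the MHC class I-like gene H2-T10, whose family also shares sequence, was at 2.37 to 2.59 CPM at P7 and 0.129 to 0.458 CPM at P10. Both are on chromosome 17 and overlap, on opposite strands (36111426 to 36117121 and 36115876 to 36121465). Whether their counts are separate signals was not tested. Terc, the RNA of telomerase, was at 0.894 to 1.92 CPM at P7 and listed at 0 in the 3 P10 libraries, after 6.62 to 17.7 CPM at E17.5.

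The thyroid hormone receptor gene Thrb was higher at P10 together with Hr and Klf9, which are known to respond to that hormone. Thrb was at 0.997, 1.63 and 1.16 CPM at P7 and 2.67, 3.30 and 3.41 CPM at P10 (log2 fold change 1.31, SE 0.29, edgeR adjusted p = 0.0377), while Thra, the other receptor gene, was at 142 ± 5 and 128 ± 5 CPM (SD, n = 3; edgeR adjusted p = 0.439). These 4 genes were chosen after the values were seen.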
